A study of Mus musculus with 6 samples.

Results

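The genes described here are the 230 loci that the authors typed as new long noncoding RNA genes in a table of 34724 genes. They were chosen here by that gene type alone, with no filter on level. If the new loci were assembled from reads of these same libraries, the type itself depends on being read. The sources used here do not state which reads were used. Each of the 230 genes carries only an identifier of the form ONT and a number, and in all 230 the symbol repeats the identifier. By contrast, all 244 loci typed as known long noncoding RNA genes carry an Ensembl or NONCODE gene name beside their ONT identifier. The table also holds 12214 other new genes and 22036 known genes with Ensembl identifiers, of which 99.5% are protein coding among the 22022 found in GENCODE M21.

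Polyadenylated RNA was read directly on a nanopore instrument in 3 libraries of 2H-11 cells and 3 libraries of SVEC4-10 cells. Per the labels, 2H-11 is a line of tumor endothelial cells and SVEC4-10 a line of normal endothelial cells. Both derive from adult C3H/HeJ mice, from the axillary lymph node, and both are transformed with SV40, so SVEC4-10 carries the viral transformation as well. With a single line for each label, tumor or normal origin and any further way in which the lines differ cannot be told apart. Library totals ran from 4105369 to 5825968 counts in 2H-11 and from 3628400 to 16798666 counts in SVEC4-10, and the largest, SVEC4-10 replicate 3, held 68.0% of the counts of its line. Of 15 pan-endothelial marker genes, 12 were under 1 count per 1000000 (CPM, counts per 1000000 counts of the library) in all 6 libraries. Among these 12, 7 had no count at all, including Vwf, Tie1, Erg and Cldn5. The markers that reached 1 CPM in a library were Eng, Egfl7 and Flt1. Their means were 9.61, 5.40 and 1.68 CPM in 2H-11 cells and 2.45, 0.787 and 1.25 CPM in SVEC4-10 cells. The 15 markers summed to 13.6 to 22.0 CPM in the 2H-11 libraries and 4.21 to 6.19 CPM in the SVEC4-10 libraries, so the labelled cell type had little marker support in either line. Of 8 markers of other cells, Epcam and Cd3e had no count, Ptprc and Cd79a had at most 3 counts in a line, and Krt8 had 0 counts in 2H-11 and 72 in SVEC4-10. The mesenchymal genes Col1a1 (271 CPM in 2H-11 cells, 150 in SVEC4-10 cells), Pdgfrb (27.5 and 0 CPM) and Dcn (13.8 and 307 CPM) were read. The part of such differences in the results below was not tested. The labels do not state that replicate libraries were grown as separate cultures, and p-values measure only how far these libraries spread, which may be technical. In bulk RNA, fewer cells with a transcript and less of it per cell cannot be told apart.

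Long noncoding RNAs are transcripts without a recognisable long open reading frame. They are transcribed, spliced and often polyadenylated like messenger RNA, and many are retained in the nucleus, where some act as scaffolds for chromatin or splicing proteins or mark active enhancers. As a class they are known for low copy number and for restriction to particular cell types. Assembly of long reads adds loci of this kind that no reference annotation holds, and such loci are usually called noncoding from their sequence. The files used here give no function, sequence, length or exon structure for the 230 genes, so no sequence is shown and the noncoding call could not be checked. Overlap with annotated genes and the use of strand in counting could not be checked either, so reads shared with an overlapping or antisense gene cannot be told apart from their own.

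The identifiers hold no coordinates, but a check added after the tables were seen showed that their numbers follow the genome. Of the known long noncoding RNA genes, 177 could be placed by a single Ensembl identifier in GENCODE M21 (GRCm38, the build named in the labels). Sorted by ONT number, all 176 adjacent pairs were in order of chromosome name, then strand (plus before minus), then start. On that basis 132 of the 230 new genes had a number between those of 2 placed genes on one chromosome and one strand, 69 on the plus and 63 on the minus strand, over 20 chromosomes. Among these 132, chromosome 17 held the most with 16, followed by chromosome 11 with 14 and chromosome 6 with 12. The remaining new genes are not in these numbers, which therefore do not give the spread of all 230 over chromosomes. The intervals between the flanking genes were wide, with a median of 23.9 Mb and a range of 1.03 to 105 Mb. These intervals describe the numbering and are not measured positions of the genes.

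The 230 genes together took a small part of each library. Their share of all counts was 0.118 ± 0.0109% in 2H-11 and 0.161 ± 0.0136% in SVEC4-10 (SD, n = 3 each). The libraries of the lines did not overlap, with 0.112 to 0.131% in 2H-11 and 0.149 to 0.176% in SVEC4-10. The 244 known long noncoding RNA genes held a larger share and stood the other way, at 0.440 ± 0.0393% in 2H-11 and 0.331 ± 0.0267% in SVEC4-10. For scale, Gas5, a known growth-arrest transcript that hosts small nucleolar RNAs, was read at 401 ± 36.8 CPM in 2H-11 cells and 293 ± 32.1 CPM in SVEC4-10. Snhg12, another host of small nucleolar RNAs, was read at 51.1 ± 2.57 and 31.9 ± 4.89 CPM in 2H-11 and SVEC4-10 libraries. Meg3, an imprinted transcript with growth-suppressing activity, was read at 2.47 ± 1.80 CPM in 2H-11 and had 2 counts in SVEC4-10.

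Few of the new genes carried most of these counts. ONT.17393 alone took 38.7 ± 4.94% of the counts of the 230 genes in 2H-11 and 36.8 ± 9.56% in SVEC4-10. The 10 most counted genes took 64.6 ± 2.10% in 2H-11 and 73.2 ± 4.15% in SVEC4-10. Without these 10 genes the share of all counts was 0.0421% in 2H-11 and 0.0432% in SVEC4-10, so the difference in the summed share lay in the most counted genes. CPM levels are not scaled by transcript length, which the files do not give, so their order is one of reads.

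**Figure D1:**
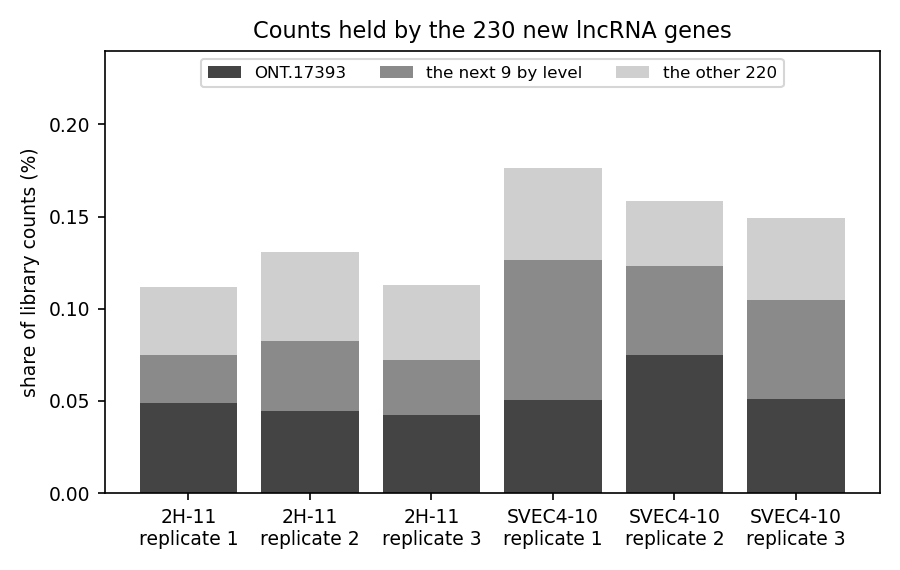
Share of each library's counts (%) held by the 230 new lncRNA genes, stacked as ONT.17393, the next 9 genes by mean level and the other 220, for 3 libraries of 2H-11 (left) and 3 of SVEC4-10 (right). The totals sit between 0.112 and 0.131% in 2H-11 and between 0.149 and 0.176% in SVEC4-10, while the part of the other 220 is similar in height.

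Most of the new genes were near the limit of counting. The median over the 230 genes of the mean level was 0.976 CPM in 2H-11 cells and 0.755 CPM in SVEC4-10. Known long noncoding RNA genes were at 2.71 and 1.75 CPM, the other new genes at 0.821 and 0.514 CPM, and known genes at 0.740 and 0.467 CPM, with the 2H-11 value first in each pair. Known genes had no count in any library in 33.3% of cases, against 3.48% of the new lncRNA genes, which lowers their median. The upper quartile was 2.14 CPM for the new lncRNA genes and 16.1 CPM for known genes in 2H-11 libraries, and 2.06 and 16.2 CPM in SVEC4-10 libraries. In 2H-11, 28 of the 230 genes had no count, 88 were under 1 CPM, 99 were from 1 to 10 CPM, 14 from 10 to 100 CPM, and 1 was above that. In SVEC4-10, 26 had no count, 113 were under 1 CPM, 71 from 1 to 10 CPM, 17 from 10 to 100 CPM, and 3 above that. With 3 counts as the limit, 0 counts over the 3 libraries of a line still allow 0.196 CPM across 2H-11 and 0.121 CPM across SVEC4-10. Such limits and all counting intervals cover counting error only. A bound on a fold is the mean CPM of the other line over this limit, while ratios divide summed counts, so the 2 are unlike measures.

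**Figure D2:**
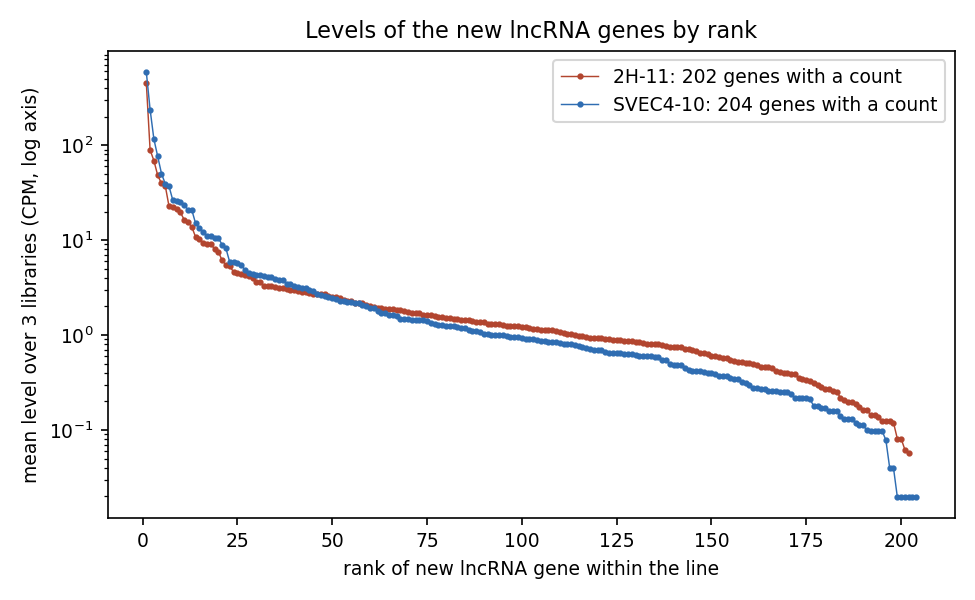
Mean level over 3 libraries (CPM, log axis) of the new lncRNA genes against their rank within each line, for the 202 genes with a count in 2H-11 and the 204 in SVEC4-10. Both curves drop steeply over the first ranks, from 455 CPM in 2H-11 cells and 590 CPM in SVEC4-10 cells, and run near 1 CPM in the middle, with medians over all 230 genes of 0.976 and 0.755 CPM.

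Detection was repeated across libraries for many of these genes. Where a new locus was assembled from these same reads, a count in some library was given in advance. Known genes are listed whether read or not. A count was found in all 6 libraries for 114 of the 230 genes (49.6%), in 5 for 39, in 4 for 25, in 3 for 31, in 2 for 8 and in 1 for 5. The remaining 8 had no count in any library although they are listed in the table. All 3 libraries of 2H-11 had a count for 164 genes (71.3%) and all 3 of SVEC4-10 for 143 (62.2%). Over the known long noncoding RNA genes these shares were 86.1% and 84.0%, and over the other new genes they were 67.6% and 58.2%.

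Depth moved the number detected per library. In 2H-11 it was 186, 190 and 181 genes in replicates 1 to 3, and in SVEC4-10 it was 176, 158 and 202. The highest value belonged to the deepest library. Had every library been read to the total of the smallest one, the expected numbers would be 178, 187 and 174 in 2H-11 and 171, 158 and 178 in SVEC4-10. On that footing 153 genes would have a count in all 2H-11 libraries and 136 in all SVEC4-10 libraries, and 104 in all 6. SVEC4-10 replicate 2, at that depth already, stayed the lowest for the new lncRNA genes and for the other new genes (64.8% detected). It was also the lowest for known genes (53.3%) and all genes (57.7%), though not for the known long noncoding RNA genes.

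**Figure D3:**
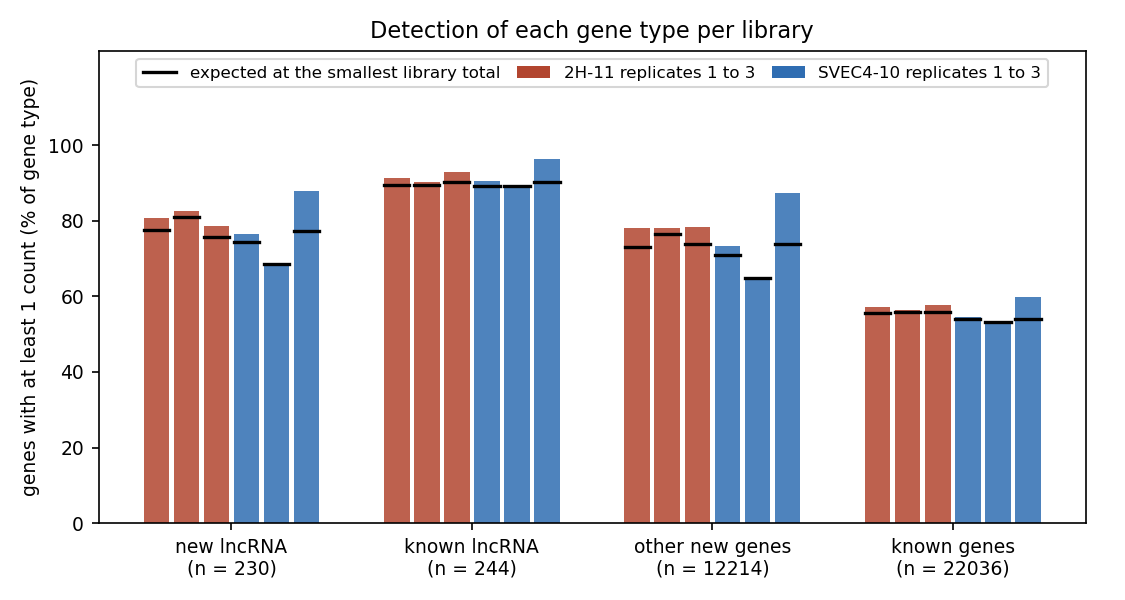
Genes with at least 1 count, as % of each gene type, in 2H-11 replicates 1 to 3 (left bars of each group) and SVEC4-10 replicates 1 to 3 (right bars); black lines give the share expected at the total of the smallest library. The new lncRNA genes run from 78.7 to 82.6% in 2H-11 and from 68.7 to 87.8% in SVEC4-10, and from 75.8 to 81.1% and 68.7 to 77.2% at equal depth.

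Levels of the new genes were more closely correlated between libraries of one line than between the lines. Over the 230 genes, Pearson correlations of log2(CPM + 1) were 0.902 to 0.939 between 2H-11 libraries and 0.943 to 0.960 between SVEC4-10 libraries. Between a 2H-11 and a SVEC4-10 library they were 0.514 to 0.628 over 9 pairs. Over the 22036 known genes the same measures were 0.990 to 0.995, 0.990 to 0.993 and 0.949 to 0.959. These describe likeness across genes, which are not independent replicates and share the depth of their libraries. Such correlations also depend on the range of levels, so the 2 gene types are not on an equal footing. The upper quartile in 2H-11 was 2.14 CPM for the new lncRNA genes and 16.1 CPM for known genes. Correlations were not computed for the known long noncoding RNA genes or the other new genes.

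The study set the line labelled tumor endothelial against the line labelled normal endothelial. Counts were tested for all genes that reached 2.07 CPM in at least 3 libraries, which left 13187 genes and 69 of the 230 new lncRNA genes. The other 161 were not tested; 153 of them had counts, with levels of at most 1.96 CPM as the mean of the lines. Of the 69 tested, 23 were higher and 22 lower in 2H-11 (edgeR quasi-likelihood test; p adjusted by Benjamini-Hochberg over all 13187 genes and under 0.05), and 24 did not pass. That is 33.3% higher and 31.9% lower, where 20.1% and 16.2% of all genes tested were so called. In either direction 45 of the 69 (65.2%) were called, where 36.2% of all genes tested were.

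The minimum count bears on this reading, because a gene that passes it through the line where it is high tends to differ. Of the 69 genes, 24 reached it in all libraries of 2H-11 but not in all of SVEC4-10, and 16 of these were called higher and 0 lower. Likewise 21 reached it in all libraries of SVEC4-10 but not in all of 2H-11, and 18 of these were called lower and 0 higher. Over all genes tested, 1799 and 832 passed in these ways. How many of those were called was not counted, so these calls are not read as a trait of the new genes. Another 21 of the 69 were over the minimum in all libraries of both lines. Of those, 7 were higher, 4 were lower and 10 were not called, that is 33.3% higher and 19% lower, where 13.4% and 16.1% of the 10023 such genes in the table were. This split was made after the calls were seen. The remaining 3 passed on libraries of both lines.

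The direction of the calls was nearly even for the new lncRNA genes. The median log2 fold change (2H-11 over SVEC4-10) of the 69 genes was -0.00055, beside 0.0025 over all genes tested, 0.38 over the 136 known long noncoding RNA genes tested and 0.80 over the 2833 other new genes tested. Of these, 42 known long noncoding RNA genes were higher and 18 lower, and 1261 other new genes were higher and 186 lower. The median size of the change without its sign was 1.51 in the new lncRNA genes, 0.66 in the known ones and 0.49 over all genes tested. These sizes include the genes that passed the minimum through one line. Over the genes above the minimum in both lines the median size was 0.76 in the 21 new lncRNA genes, 0.57 in 92 known ones, 0.77 in 1285 other new genes and 0.39 in all 10023. Setting the 4 tested genes with no count in one line at their bounds left both medians over the 69 as they were. A change of at least 2-fold was reached by 20 of the 23 higher and 21 of the 22 lower genes, and one of at least 8-fold by 8 and 14. Over all genes tested, 2075 of 2645 higher and 1209 of 2133 lower genes reached 2-fold, and 526 and 329 reached 8-fold. Among the 21 genes above the minimum in both lines, 4 were called at least 2-fold higher and 3 at least 2-fold lower, and 1 reached 8-fold. For all 10023 such genes these numbers were 779, 690 and 97. With scaling factors from known genes alone, which shifted the median of all genes by 0.11, 24 of the 69 new lncRNA genes were higher and 20 lower. Over all 13187 genes tested, 2989 were then higher and 1725 lower.

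The groups of libraries were separated in most of the called genes. In 44 of the 45 called genes all libraries of one line were above all of the other, and 5 of the 24 uncalled genes were separated as well. The calls were made on these same libraries, so separation was favored in advance among called genes. Together the separated genes are 71.0% of the 69, where 46.8% of all genes tested were separated. The share was 59.6% of the known long noncoding RNA genes tested and 58.1% of the other new genes tested. Over all 230 genes, tested or not, 106 (46.1%) were separated, 60 with 2H-11 above and 46 with SVEC4-10 above, where 27.4% of all genes in the table were. Genes with no count in any library cannot be separated. They were 24.3% of all genes and 3.48% of the 230, which lowers the share over all genes more. The genes called higher had a median level of 7.53 CPM in 2H-11 cells and 0.995 CPM in SVEC4-10. The genes called lower had a median level of 1.22 CPM in 2H-11 cells and 11.3 CPM in SVEC4-10. The summed level of the higher genes was 336 CPM for 2H-11 cells, against 103 CPM for SVEC4-10 cells. For the lower genes it was 589 and 1275 CPM, in the same order. ONT.17393 alone made up 455 of the 589 CPM and 590 of the 1275 CPM. Only 5 of 14 alternative settings kept the call of that gene. The genes were grouped by direction on these same values. Which line had the larger median and sum was therefore favored in advance. In every fit that was run, those with fewer genes tested included, 11 of the higher and 12 of the lower genes were called. The fit with at least 20 counts in 3 libraries left 17 of the 45 called genes untested, so these numbers depend on that filter. The same was not counted over all genes.

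**Figure D4:**
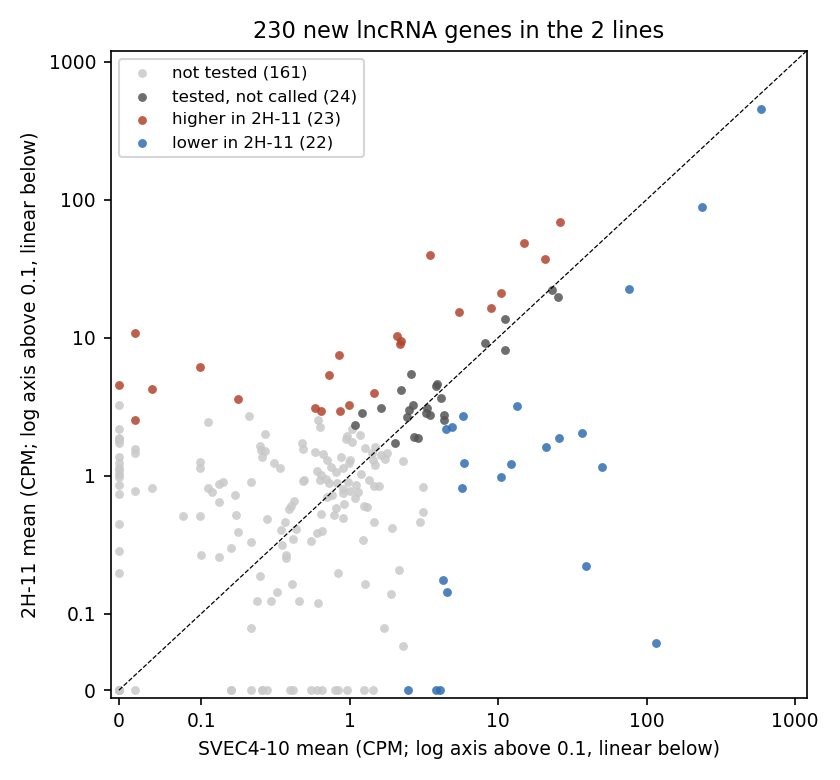
Mean level of the 230 new lncRNA genes in 2H-11 (vertical axis) against SVEC4-10 (horizontal axis), in CPM on axes that are logarithmic above 0.1 and linear below; the dashed line marks equal levels. The 23 genes higher and 22 lower in 2H-11 lie on both sides of the line, and the 161 untested genes lie at the low end.

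Among the 5 most counted genes, 1 was higher and 4 were lower in 2H-11. ONT.17393, the most counted, was read at 491, 448 and 427 CPM in the 2H-11 libraries and at 508, 751 and 512 CPM in the SVEC4-10 libraries. The lines did not overlap, but SVEC4-10 replicate 2 stood apart and the nearest libraries of the lines were close. The log2 fold change was -0.48 (SE 0.18, adjusted p = 0.0486). The call rests on the settings: over 14 alternatives the log2 fold change ran from -0.66 to -0.28 and adjusted p from 0.00820 to 0.199, and only 5 of the 14 kept it. Without SVEC4-10 replicate 2 it was -0.28 (adjusted p = 0.199). Without 2H-11 replicate 2 or 3 adjusted p was 0.131 and 0.0909. The number of this gene lies between those of Dancr (chromosome 5, plus strand, 74093060 to 74095406) and 4933404O12Rik (136919146 to 136937112).

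ONT.4387 was read at 79.3, 133 and 55.1 CPM in 2H-11 cells and at 300.1, 197 and 216 CPM in SVEC4-10. All SVEC4-10 libraries were above all 2H-11 libraries, and 2H-11 replicate 2 was the highest of its line. It was 2.85-fold lower in 2H-11 (log2 change -1.51 with SE 0.25; adjusted p = 8.1e-05). Its number lies between those of Gm11423 (chromosome 11, minus strand, 82779601 to 82781042) and Gm11496 (88993040 to 88996544).

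ONT.12514 was read at 17.7, 31.4 and 18.7 CPM in 2H-11 cells and at 103, 65.0 and 61.3 CPM in SVEC4-10. Every SVEC4-10 library was above every 2H-11 library, and 2H-11 replicate 2 was again the highest of its line. The gene was 3.61-fold lower in 2H-11 (log2 change -1.85 with SE 0.25; adjusted p = 9.89e-06), with a number between those of Chrna1os (chromosome 2, plus strand, 73584850 to 73589208) and A330069E16Rik (91237146 to 91238352).

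ONT.16924 was the most counted of the genes higher in 2H-11. It was read at 51.5, 66.7 and 88.1 CPM in 2H-11 cells and at 29.0, 21.2 and 28.4 CPM in SVEC4-10, with no overlap. It was 2.46-fold higher (log2 change 1.30 with SE 0.23; adjusted p = 0.000176). Its number lies between those of 2700038G22Rik (chromosome 5, plus strand, 23850597 to 23855038) and 9230114K14Rik (52190672 to 52279034).

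ONT.16251 joined a high level in one line to almost no reads in the other. It was read at 0.186, 0 and 0 CPM in 2H-11, which is a single count in replicate 1, and at 190.02, 70.3 and 87.1 CPM in SVEC4-10, where replicate 1 was more than both others together. With summed counts divided by the total of their line, the level was 1568-fold lower in 2H-11 (95% exact counting interval 281 to 61961; edgeR adjusted p = 1.4e-10). Without 2H-11 replicate 1 the line was at 0, so a bound was taken from the mean CPM of SVEC4-10, and the gene was at least 383-fold lower. Leaving out 2H-11 replicate 3 gave a ratio of summed counts of 971 (174 to 38377). Its number lies between those of Smc2os (chromosome 4, minus strand, 52430285 to 52438965) and Gm12602 (89100664 to 89128226).

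The other 3 genes with the largest fitted decreases were likewise at or near 0 in 2H-11. Their order rests on fitted folds over a line with few or no counts, which are not measured sizes. ONT.2052, with 19 counts in 2H-11 and 1258 in SVEC4-10, had a fitted fold of 43.3, above the bounds of ONT.22113 and ONT.22669 below. ONT.23878 had 0, 2 and 1 counts in 2H-11 and was read at 62.9, 23.7 and 30.8 CPM in SVEC4-10. Its ratio of summed counts was 180.1-fold lower in 2H-11 (61.4 to 875; adjusted p = 4.07e-09), 395 (70.8 to 15633) without 2H-11 replicate 2 and 117 (39.9 to 568) without 2H-11 replicate 1. SVEC4-10 replicate 1 was again the highest of its line, as in ONT.16251. ONT.22113 had no count in 2H-11 and 3.51, 4.13 and 4.52 CPM in SVEC4-10, which is at least 20.7-fold lower (adjusted p = 2.87e-06). ONT.22669 had no count in 2H-11 and 2.34, 4.13 and 5.0 CPM in SVEC4-10, which is at least 19.5-fold lower (adjusted p = 7.64e-06). These bounds take 3 counts over the 2H-11 libraries as the limit. Without 2H-11 replicate 1 or 3 they were 13.4 and 12.8 for ONT.22113, and 12.7 and 12.1 for ONT.22669. The number of ONT.22669 lies between those of 3110039I08Rik (chromosome 9, plus strand, 41327077 to 41716994) and 4930461G14Rik (58455122 to 58469635), and those of ONT.23878 and ONT.22113 lie across a change of strand or chromosome.

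The 4 genes with the largest fitted increases were at or near 0 in SVEC4-10, and their order rests on fitted folds in the same way. The fourth place was close, since ONT.1292 had 63 counts in 2H-11 and 2 in SVEC4-10, both in replicate 3, a ratio of 50.8 (13.5 to 429), beside the same fitted log2 fold change of 5.35 as ONT.8452. ONT.1292 and ONT.2052 are named here after their values were seen. ONT.10427 was read at 2.79, 5.6 and 5.15 CPM in 2H-11 while no SVEC4-10 library had a count. This is at least 37.2-fold higher (adjusted p = 2.47e-06), and at least 11.9-fold without SVEC4-10 replicate 3. Its number lies between those of Gm11110 (chromosome 17, minus strand, 57091370 to 57105942) and Trmt61b (71557027 to 71598755). ONT.3499 was read at 8.0, 12.7 and 11.7 CPM in 2H-11, and SVEC4-10 had 1 count, in replicate 3. The ratio was 263-fold higher (46.6 to 10454; adjusted p = 2.44e-08), and without that library the gene was at least 28.4-fold higher. Its number lies between those of D030028A08Rik (chromosome 11, plus strand, 96916270 to 96965060) and Snhg20 (117076008 to 117078955).

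ONT.17226 was read at 3.91, 5.12 and 9.27 CPM in 2H-11 and had 1, 0 and 1 counts in SVEC4-10, with 2H-11 replicate 3 the highest. The ratio was 77.5-fold higher (20.9 to 649; adjusted p = 1.72e-06), 128 (22.5 to 5112) without SVEC4-10 replicate 1 and 49.6 (8.69 to 1979) without SVEC4-10 replicate 3. ONT.8452 was read at 2.42, 2.92 and 2.23 CPM in 2H-11, an even level, and had 1 count in SVEC4-10, in replicate 3. The ratio was 61.3-fold higher (10.4 to 2486; adjusted p = 6.8e-06), and without that library the gene was at least 6.65-fold higher. Without 2H-11 replicate 1 it had too few counts to be tested.

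**Figure D5:**
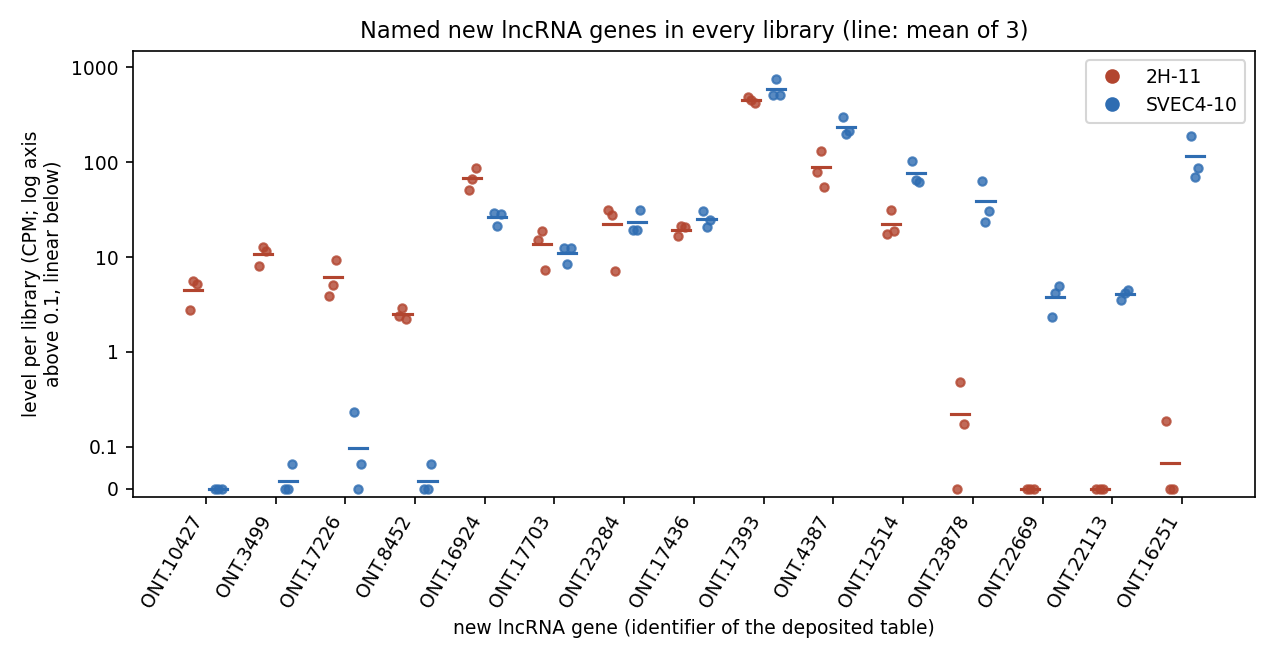
Level in each library (CPM, logarithmic above 0.1 and linear below) of the 15 named new lncRNA genes, ordered from the largest fitted increase to the largest fitted decrease; points are libraries, short lines are means of 3, with 2H-11 left and SVEC4-10 right at each gene. ONT.10427 has no reads in SVEC4-10, ONT.22113 and ONT.22669 have none in 2H-11, and the libraries of the lines overlap in ONT.17703, ONT.23284 and ONT.17436.

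ONT.8452 and ONT.8451 carry consecutive numbers, and both were higher in 2H-11. ONT.8451 stood at 7.53 ± 2.05 CPM in 2H-11 cells and 0.845 ± 0.0821 CPM in SVEC4-10 (SD, n = 3 each; log2 fold change 3.08, edgeR adjusted p = 1.11e-05). Only 2 pairs of the 230 genes had consecutive numbers. The other pair, ONT.12092 and ONT.12093, was too low to be tested, at 1.23 ± 0.486 and 0.859 ± 0.115 CPM in 2H-11 cells and 0.310 ± 0.329 and 1.11 ± 0.360 CPM in SVEC4-10. Whether consecutive loci are parts of one transcript was not tested. These pairs, and the genes next to placed ones below, were picked after their values were seen.

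In total 8 of the 230 genes had a number directly before or after that of a placed known gene. ONT.2052, numbered directly before Gm47843 (chromosome 10, minus strand, 23573020 to 23609431), was read at 1.15 ± 0.791 CPM in 2H-11 cells and 50.3 ± 10.5 CPM in SVEC4-10 (log2 fold change -5.44, adjusted p = 1.88e-09, edgeR). ONT.10201, numbered directly after Gm19412 on the minus strand of chromosome 17, lay in the narrowest interval and did not pass, at 4.45 CPM in 2H-11 cells and 3.79 CPM in SVEC4-10 (log2 fold change 0.13, adjusted p = 0.799, edgeR).

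Genes counted in every library of one line and in no library of the other were few but occurred in both directions. A new locus may have entered the table through reads of a single line, so the shares below are not on an equal footing. Genes with no count in any library fall in neither class, and they were 24.3% of all genes and 3.48% of the 230. In 2H-11 alone 14 of the 230 genes were counted (6.09%, against 1.45% of all genes in the table), with bounds of at least 6.09-fold to 37.2-fold. Without SVEC4-10 replicate 3 the bounds of these 14 genes were 1.95-fold to 11.9-fold. In SVEC4-10 alone 11 were counted (4.78%, against 0.953% of all genes), with bounds of at least 2.78-fold to 20.7-fold. Without 2H-11 replicate 1 or 3 these were 1.81-fold to 13.4-fold and 1.72-fold to 12.8-fold. Of the 244 known long noncoding RNA genes, 6 were counted in one line alone in each direction, and of the 12214 other new genes 164 in 2H-11 alone and 126 in SVEC4-10 alone. Thinned to the smallest library, 19 and 11.7 of the 230 new lncRNA genes (8.24% and 5.08%) would be expected in the 2 classes. At that depth the shares were 2.06% and 0.978% of all genes and 2.37% and 1.12% of the other new genes. They were 3.06% and 3.07% of the known long noncoding RNA genes. Without SVEC4-10 replicate 3, 22 of the 230 genes were counted in 2H-11 alone, so the deepest library supplied the reads that removed 8 genes from this class. With at least 10 counts in each library of the line, 3 genes remained in 2H-11 alone, namely ONT.10427, ONT.2237 and ONT.986, and 1 pair in SVEC4-10 alone, ONT.22113 and ONT.22669.

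The 3 most counted genes that did not pass the test overlapped between the lines. ONT.23284 was read at 31.3, 27.8 and 7.21 CPM in 2H-11 cells and at 19.2, 19.3 and 31.2 CPM in SVEC4-10. The groups overlapped, with 2H-11 replicate 3 low and SVEC4-10 replicate 3 high (log2 change -0.22 with SE 0.36; adjusted p = 0.677). ONT.17436 was read at 16.6, 21.4 and 20.6 CPM in 2H-11 cells and at 30.9, 20.9 and 24.6 CPM in SVEC4-10 (log2 change -0.47 with SE 0.22; adjusted p = 0.111). ONT.17703 was read at 15.1, 18.8 and 7.38 CPM in 2H-11 cells and at 12.6, 8.54 and 12.3 CPM in SVEC4-10 (log2 change 0.17 with SE 0.30; adjusted p = 0.707). In both ONT.23284 and ONT.17703 the lowest library was 2H-11 replicate 3, while ONT.17436 was more even within each line. The 24 tested genes that did not pass had log2 fold changes from -0.94 to 1.05, and a missed threshold does not show that their levels are equal. The median spread between libraries of a line, as a biological coefficient of variation, was 24.7% for the 69 new lncRNA genes and 21% for all genes tested.

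The authors' deposited table holds DESeq2 values for 121 of the 230 genes. Of these, the authors' deposited table marks 23 as up and 24 as down at an adjusted p of 0.01 and a 2-fold change, where 11.5% and 7.46% of 16107 genes are so marked. Its signs run as 2H-11 over SVEC4-10 in 97.4% of the genes tested in both. Of the 23 genes up in the authors' deposited table, 16 were called higher here and 7 had too few counts for the test here. Of the 24 down, 17 were called lower and 7 had too few counts. No gene was called in opposite directions, and 12 genes called here are marked as normal in the authors' deposited table.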

How the data were processed

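The members, lists and rules were chosen with earlier results of these data known. Per the labels, libraries were made from 1 ug of total RNA with the direct RNA kit SQK-RNA002, and builds mm10 and GRCm38 are named in the submitters' processing notes. The names of the aligner, counter, annotation and lncRNA caller were not given in the sources used here. Raw read counts per gene were deposited by the authors, with the same counts as CPM. The deposited table also holds the authors' other columns, which are log2 fold changes and adjusted p-values from DESeq2. In all, 13 broken lines were left out, which left 34724 genes.

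Counts were tested with edgeR 4.0.16 in R 4.3.3 (filterByExpr with minimum count 10 and minimum total 15, TMM, quasi-likelihood, line as the only term). The SE of a fold change was computed from it and the F statistic. The threshold was an adjusted p of 0.05. Libraries of one line differed by more than sampling noise. Named genes were the 5 most counted, the 4 largest fitted increases and 4 largest fitted decreases among called genes without overlap, the 3 most counted uncalled ones, and the most counted gene read in one line alone per direction. Of 8 annotated long noncoding RNAs listed for scale, the 3 found by symbol are given and the others are not reported here. Expected detection at equal depth was computed exactly. Alternatives included DESeq2 1.42.0, limma-voom (limma 3.58.1), other scalings and filters, a block for replicate number and leaving out each library. Tables used Python 3.11.15.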

Additional observations from a re-analysis of the deposited data

How the results depend on the processing

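The numbers of genes called higher and lower in 2H-11, 23 and 22, stayed within 1.5 times under every scaling, DESeq2, limma-voom and each left-out library (20 to 28 higher and 21 to 27 lower without one library). Over all genes tested, 2281 to 2929 were higher and 1754 to 2220 lower without one library. The numbers for the new lncRNA genes changed with the filter on low counts, by the number tested. They were 53 higher and 46 lower of 222 genes with none, where 3854 and 3117 of all 26293 genes were so called. With at least 20 counts in 3 libraries they were 14 and 13 of 38 genes, where 2163 and 1803 of all 11194 genes were. With the replicate number as a block 21 of the new lncRNA genes were higher and 21 lower, beside 2491 and 1970 of all 13187 genes tested. Same-numbered libraries did not deviate together (correlations -0.02, 0.05 and -0.0026), and not every library correlated best with its own number. With at least 3 counts in place of 1, 68 genes were detected in all 6 libraries, 9 in 2H-11 alone and 6 in SVEC4-10 alone. With at least 10 counts, 51 were detected in all 2H-11 libraries, 41 in all SVEC4-10 libraries and 22 in all 6, with 3 and 2 in one line alone. Leaving out one library gave 14 to 22 genes in 2H-11 alone and 11 to 16 in SVEC4-10 alone. The share of counts without the most counted gene was 0.0729% in 2H-11 and 0.102% in SVEC4-10, and without the 10 most counted 0.0421% and 0.0432%. No called gene changed direction. Among uncalled genes ONT.23284 turned to 0.19 without 2H-11 replicate 3 and to 0.04 without SVEC4-10 replicate 3, (-0.59 to 0.19 over left-out libraries), and ONT.17703 to -0.11 without 2H-11 replicate 2 (-0.11 to 0.46); the cause was not tested. ONT.8452, ONT.10427, ONT.22113 and ONT.22669 gave no value with at least 20 counts, and ONT.8452 none without 2H-11 replicate 1.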
